A study of Mus musculus with 22 samples.

Results

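A set of 10 genes that set and carry out iron handling were followed in mouse liver: hepcidin (Hamp), its duplicate Hamp2, the hepcidin regulators Bmp6, Tmprss6 and Tfr2, transferrin (Trf) and its receptor (Tfrc), the ferritin heavy chain (Fth1), the iron exporter ferroportin (Slc40a1) and ceruloplasmin (Cp). They were chosen by symbol, as the rows whose Ensembl identifier maps to these names in GENCODE, and make up 10 of the 53392 rows of the deposited table. All 10 passed the filter on low counts, which kept 15928 genes.

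RNA was sequenced from whole liver of 22 C57BL/6 mice, with 1 library per mouse. Of the conventional mice, which carry an ordinary microbiota, 6 were not pregnant and 5 were. Of the germ-free mice, raised without microbes, 6 were not pregnant and 5 were. No transgene, deletion or drug is named for any group, and all mice had the same autoclaved chow, water and bedding. Pregnant mice were labelled as gestation day 15, which was assumed in germ-free mice after matings of 72 h. Age labels, given without a unit, ran from 70 to 77 for conventional mice, against 91 to 121 for those without microbes, so age, dating of the pregnancy and microbiota status cannot be told apart. Totals ran from 18064491 to 30036912 estimated counts per library, and summed hepatocyte marker expression was 61110 to 251314 CPM (each gene's counts scaled by library size) over all 22. Conventional non-pregnant mouse 6 and conventional pregnant mouse 2 stood apart in several genes, and counts that move by more than 1.5 times without either of them are given both ways. Mitochondrially encoded genes held 5.90% to 32.0% of counts. P-values set each group difference against the spread between these mice.

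Hepcidin is a peptide that hepatocytes release into the blood, where it binds ferroportin and sends it for degradation, which holds iron inside cells. Its gene is driven by bone morphogenetic proteins (BMPs) made by liver endothelial cells, acting through SMAD factors, and by interleukin-6 acting through STAT3. Transferrin carries iron in plasma, ferritin stores it in cells, and ceruloplasmin is a copper enzyme that oxidises iron for loading onto transferrin. Several of these transcripts also hold iron-responsive elements, hairpins bound by iron regulatory proteins. In a 5′ UTR such a hairpin blocks translation when iron is low, and in the 3′ UTR of Tfrc the hairpins keep the transcript from being degraded.

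Hamp and Hamp2 lie side by side on chromosome 7 of GRCm38, both on the minus strand, Hamp (ENSMUSG00000050440.8) at 30942368 to 30944032 and Hamp2 (ENSMUSG00000056978.8) at 30922372 to 30924681. The promoter windows are shown because the pair differed in their response to pregnancy while sharing most of their upstream sequence. Each line gives the 250 bases before the RefSeq start in GRCm38.p6, read 5′ to 3′ on the gene's strand, and 7 of the 10 genes had an entry in that table. For Hamp2 the window lies within the GENCODE gene, whose annotated 5′ end is 30924681, so the annotations differ on its start. Capitals mark GGCGCC, the core of the BMP-responsive element, and TTCNNNGAA, the STAT consensus. Both motifs read the same on either strand.
Hamp (chr7:30944030-30944279, minus strand): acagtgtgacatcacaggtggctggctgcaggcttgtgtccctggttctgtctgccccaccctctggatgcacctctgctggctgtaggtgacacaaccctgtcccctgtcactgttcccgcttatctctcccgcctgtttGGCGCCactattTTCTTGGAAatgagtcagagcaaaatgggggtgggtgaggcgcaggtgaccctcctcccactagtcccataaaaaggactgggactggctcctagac
Hamp2 (chr7:30924182-30924431, minus strand): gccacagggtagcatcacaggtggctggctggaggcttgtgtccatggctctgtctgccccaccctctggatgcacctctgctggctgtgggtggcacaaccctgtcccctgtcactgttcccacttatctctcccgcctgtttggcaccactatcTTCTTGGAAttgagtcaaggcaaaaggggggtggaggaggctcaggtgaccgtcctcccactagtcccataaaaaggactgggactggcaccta
Over 247 aligned bases the windows were identical at 227 (91.9%). Hamp holds GGCGCC from 109 to 104 bases before its start and TTCTTGGAA from 97 to 89. Hamp2 holds the same TTCTTGGAA, from 94 to 86 bases before its start, but not GGCGCC, and the aligned bases differ by G4A, counted from 1 at the 5′ end of GGCGCC. Of 32851 RefSeq windows of this length, 9.586% hold GGCGCC and 7.02% hold TTCNNNGAA. A match of letters describes the sequence and is not a measured binding site. The transcripts are alike too, with 388 of 410 aligned bases identical (94.6%) and a longest identical run of 87 bases. Values of Hamp and Hamp2 taken singly are therefore uncertain to the extent that reads could not be assigned to 1 copy.

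Pregnancy went with less Hamp and with more Cp, Trf and Slc40a1 in both kinds of mice. In conventional mice Cp, Trf and Slc40a1 rose and Hamp fell, so 4 of the 10 genes were called in edgeR's quasi-likelihood test at an adjusted p under 0.05. Of all genes tested there 9.02% were called, 5.49% higher and 3.52% lower. In germ-free mice the same 4 genes and Tfr2 were called, 5 of 10 against 10.8% of all genes (7.15% higher and 3.6% lower). The median log2 change of the 10 genes was 0.41 in conventional and 0.53 in germ-free mice, against 0.04 and -0.02 over all genes tested. The 10 genes were chosen with earlier results of these data known. These shares and medians are therefore descriptive and do not test the set. Shares of all genes printed beside list counts come from the fit to all 22 libraries. With a library left out, calls over all genes moved too. Without conventional non-pregnant mouse 6, pregnancy in conventional mice called 1134 of all genes higher and 668 lower, against 875 and 561. Hamp2, Bmp6, Fth1, Tfrc and Tmprss6 did not pass the test in either comparison. Counting genes whose groups did not overlap gave 2 higher (2.57% of all genes) and 1 lower (2.39%) in conventional mice, and 3 higher (5.66%) and 1 lower (2.81%) in germ-free mice. The calls of Hamp, Cp, Trf and Slc40a1 in both comparisons, and of Tfr2 in germ-free mice, held without each library in turn and under each other setting tried, except when Hamp was summed with Hamp2.

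**Figure D1:**
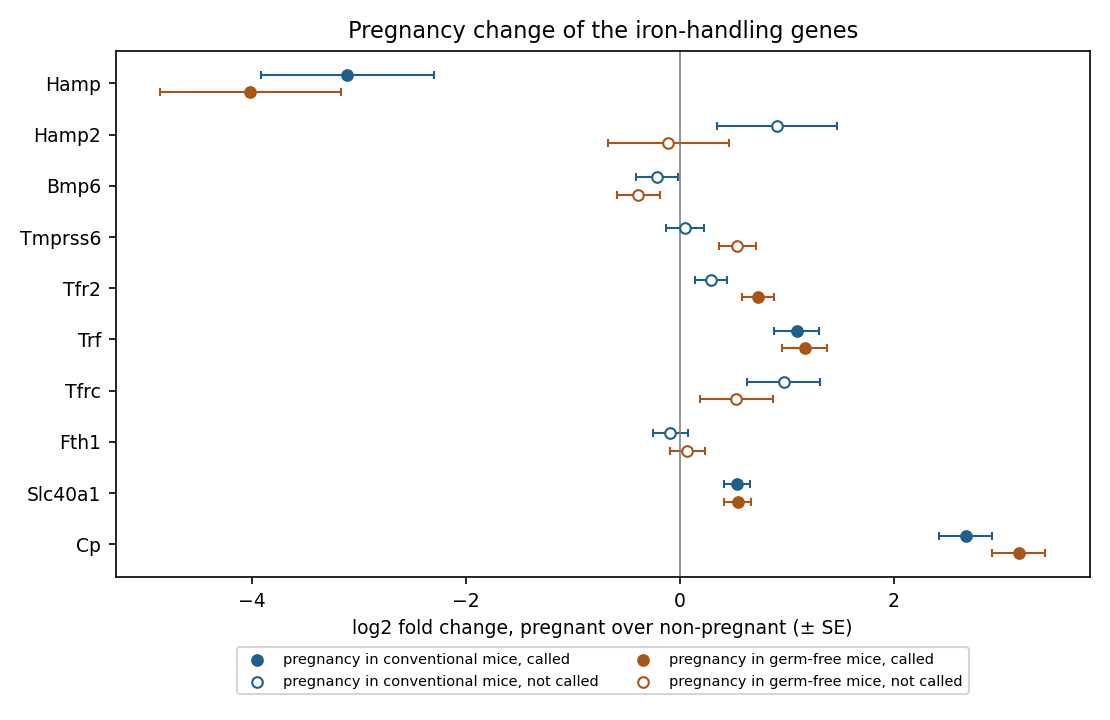
Fitted log2 fold change from non-pregnant to pregnant for each of the 10 genes, with bars of ± 1 standard error, in conventional (blue) and germ-free (brown) mice. Filled points passed the test at an adjusted p under 0.05; Hamp stands alone on the left, at -3.11 and -4.02, and Cp farthest to the right, at 2.67 and 3.17.

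Hamp, which encodes hepcidin itself, was measured in the 6 conventional non-pregnant mice at 293 CPM at the lowest, 1002 at the median and 2382 at the highest. In the 5 conventional pregnant mice it stood at 154, 179, 207, 114 and 92.0 CPM. All 5 pregnant values lay below the lowest non-pregnant one, which belonged to mouse 6. The fall was by 3.11 ± 0.81 on the log2 scale (SE, edgeR adjusted p = 0.016), or 8.63-fold between group means. Germ-free non-pregnant mice ran from 340 CPM through a median of 604 to 1086. Germ-free pregnant mice had 35.7, 150, 6.00, 1.54 and 4.74 CPM, again all below the non-pregnant range, with 3 of the 5 at 6 CPM or less and mouse 2 well above the others. Here Hamp fell by 4.02 ± 0.84 (edgeR adjusted p = 0.0024), 16.2-fold between means. Without mouse 2 it fell by 5.75 (adjusted p = 3.88e-05). In whole liver, fewer cells of a type and less RNA per cell cannot be told apart. Of 8 hepatocyte markers, 1 was higher and 2 lower in conventional mice (5.49% and 3.52% of all genes tested), and 5 higher and 1 lower in germ-free mice (7.15% and 3.6%). Without conventional non-pregnant mouse 6 the conventional count was 2 higher and 2 lower. The germ-free count was 3 higher and 2 lower without germ-free pregnant mouse 2, and 5 higher and 2 lower without conventional pregnant mouse 2. Their summed level was 67539 to 99569 CPM in conventional non-pregnant and 75763 to 251314 in pregnant mice, and 61110 to 97284 against 134407 to 209018 in germ-free mice. The part of cell make-up in the fall of Hamp was not tested.

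**Figure D2:**
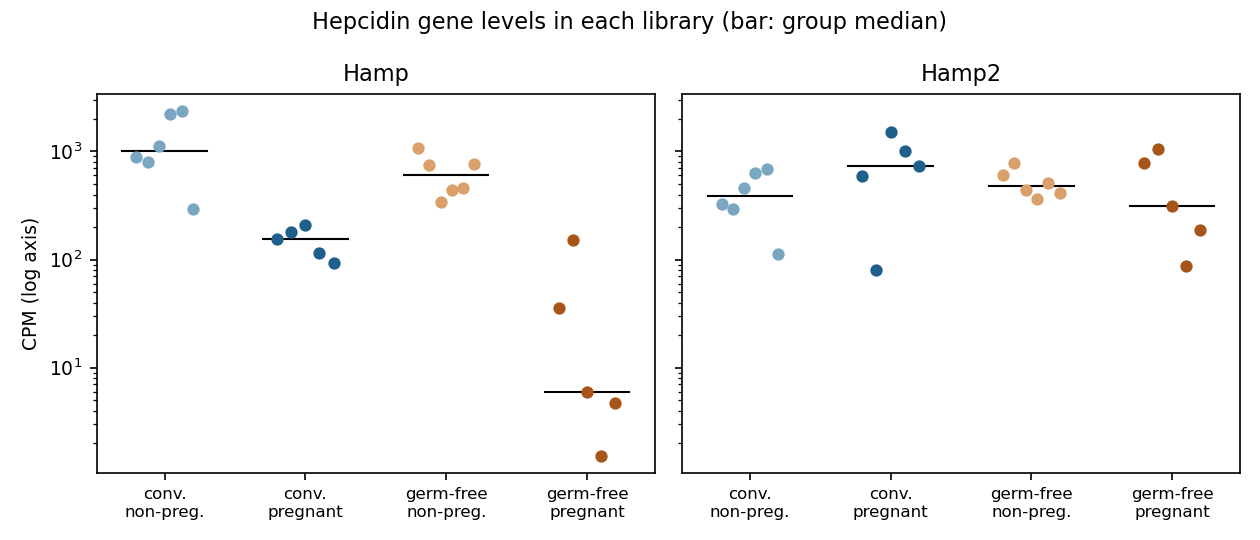
Hamp (left) and Hamp2 (right) in each of the 22 libraries, in CPM on a log axis, by group, with a bar at each group's median. The pregnant points of Hamp lie below every non-pregnant point of the same microbiota group, from 207 CPM down to 1.54, whereas the Hamp2 points of the groups overlap.

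Hamp2 encodes hepcidin-2, a duplicate found in mice that is not known to lower iron as hepcidin does. It was at 112, 391 and 689 CPM (lowest, median, highest) in conventional non-pregnant mice and at 594, 80.5, 1505, 1016 and 730 CPM in the pregnant ones. Those groups overlapped, since pregnant mouse 2 had the lowest Hamp2 value of all 22 libraries and the other 4 pregnant mice lay at or above 594. The log2 change was 0.91 ± 0.56 (edgeR adjusted p = 0.374), and 1.20 without pregnant mouse 2 (adjusted p = 0.183). In germ-free mice Hamp2 ran from 367 through 475 to 788 CPM without pregnancy and was 780, 1048, 315, 87.4 and 187 CPM with it. That spread covered both sides of the non-pregnant range, and the change was -0.11 ± 0.57 (adjusted p = 0.934).

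Because the pair may exchange reads, their counts were also summed. The summed change was -0.87 ± 0.55 in conventional mice (edgeR adjusted p = 0.387) and -1.15 ± 0.56 in germ-free mice (adjusted p = 0.207), so the call on Hamp did not carry over to the sum. The share of the summed counts assigned to Hamp2 moved between the groups instead. In conventional non-pregnant mice it was 22.0% at the lowest, 26.9% at the median and 28.9% at the highest. Conventional pregnant mice had 79.4%, 31.0%, 87.9%, 89.9% and 88.8%. Mouse 2 was thus close to the non-pregnant range while the other 4 lay far above it. Germ-free non-pregnant mice ran from 34.8% through 48.4% to 56.2%, and germ-free pregnant mice had 95.6%, 87.5%, 98.1%, 98.3% and 97.5%. No group's range met that of the group it was compared with, except for the 2 pregnant groups, where the highest conventional share, 89.9%, exceeded the lowest germ-free one.

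The mean Hamp2 share was 49.6 percentage points higher in pregnant than in non-pregnant conventional mice and 49.3 points higher in germ-free mice. Each had p = 0.00216 in an exact two-sided permutation test, the smallest that 462 splits of the mice allow, and 0.00289 after Benjamini-Hochberg adjustment over the 4 comparisons. Without pregnant mouse 2 the conventional difference was 60.7 points. Non-pregnant germ-free mice had a share 20.3 points above conventional ones (exact permutation p = 0.00216, adjusted 0.00289). Between pregnant groups the difference was 20.0 points (exact permutation p = 0.0317, adjusted 0.0317), and it was 8.90 points without conventional pregnant mouse 2 (adjusted p = 0.0397). That last call was lost without germ-free pregnant mouse 1, 3, 4 or 5, at 19.3 to 19.9 points and an adjusted p of 0.0794 each.

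**Figure D3:**
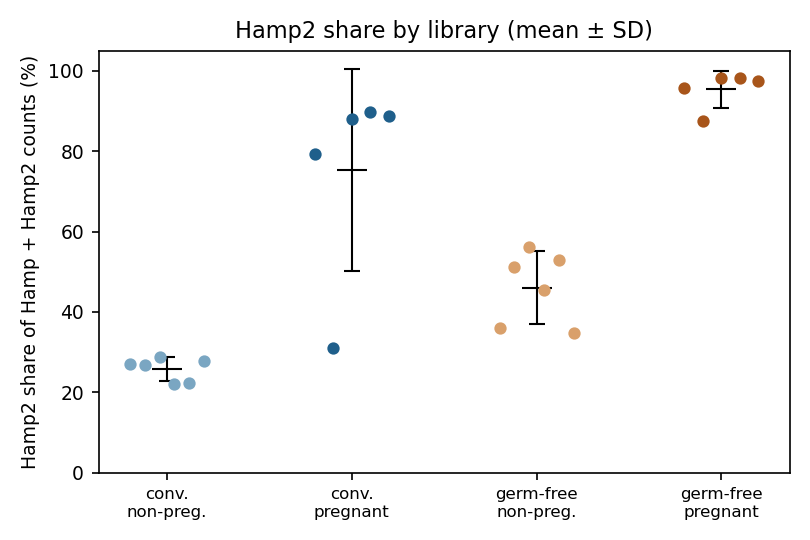
Hamp2 counts as a percentage of Hamp plus Hamp2 counts in each library, with the group mean and SD. Conventional non-pregnant mice lie between 22.0% and 28.9%, germ-free pregnant mice between 87.5% and 98.3%, and the single low point among conventional pregnant mice, at 31.0%, is mouse 2.

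Among the regulators, Tfr2 was called and Bmp6 and Tmprss6 were not. Bmp6, the BMP ligand that liver endothelial cells release when iron is plentiful, was the member of lowest expression. It measured 2.58, 3.54 and 5.02 CPM (lowest, median, highest) in conventional non-pregnant mice and 3.32, 2.98, 3.17, 2.51 and 3.40 in pregnant ones. Germ-free mice had from 2.07 through 2.62 to 3.31 without pregnancy and 1.90, 2.74, 1.49, 2.10 and 1.82 with it. The groups overlapped in both cases, with changes of -0.22 ± 0.20 (edgeR adjusted p = 0.591) and -0.39 ± 0.20 (adjusted p = 0.249). Of 9 endothelial markers none was called in conventional mice and 1 was higher in germ-free mice (7.15% of all genes). This was Stab2 at 0.39 ± 0.12, a call lost without any 1 of 7 libraries. Bmp6 shares 224 exon bases with the antisense gene Txndc5, which stood at 101 to 230 CPM, and the library kit named in the labels, taken here as one that does not mark strand, leaves reads of that stretch unresolved.

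Tmprss6 encodes matriptase-2, a membrane protease that damps hepcidin by cutting hemojuvelin, a BMP co-receptor. Conventional non-pregnant mice had 267, 311 and 513 CPM (lowest, median, highest), and pregnant mice 354, 239, 440, 314 and 390. The non-pregnant maximum was mouse 6, above all pregnant mice, and the change was 0.05 ± 0.17 (edgeR adjusted p = 0.915). Germ-free mice ran from 219 through 270 to 287 CPM and had 265, 401, 438, 398 and 411 CPM in pregnancy, where only mouse 1 fell inside the non-pregnant range. That change, 0.54 ± 0.17, missed the threshold (adjusted p = 0.0507) and was called with only the groups compared (adjusted p = 0.0227), without germ-free pregnant mouse 1 (0.64, adjusted p = 0.0168), without conventional non-pregnant mouse 6 (adjusted p = 0.0201), without conventional pregnant mouse 2 (adjusted p = 0.0299) or mouse 3 (adjusted p = 0.047), and by DESeq2 (adjusted p = 0.0265).

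Tfr2 encodes transferrin receptor 2, which hepatocytes use to sense iron-loaded transferrin. In conventional mice it was 273, 297 and 484 CPM (lowest, median, highest) without pregnancy and 371, 302, 450, 380 and 477 with it. Mouse 6 again held the non-pregnant maximum, and the change of 0.29 ± 0.15 was not called (edgeR adjusted p = 0.261). Without that mouse it was 0.44 and was called (adjusted p = 0.0258). In germ-free mice the non-pregnant range was 262 to 325 CPM with a median of 301, and the pregnant mice had 433, 478, 474, 505 and 553. All pregnant values lay above all non-pregnant ones, a rise of 0.73 ± 0.15 (adjusted p = 0.00188).

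Around these regulators, 25 genes of a BMP and SMAD list that includes all 3 were tested. In conventional mice 3 were called higher and 1 lower (5.49% and 3.52% of all genes), with a list median of 0.05 against 0.04 over all genes. In germ-free mice 8 were higher and 3 lower (7.15% and 3.6%), with a median of 0.20 against -0.02. The conventional count was 5 higher and 1 lower without non-pregnant mouse 6, and 2 higher and 1 lower without pregnant mouse 2, each with a median of 0.16. Without germ-free pregnant mouse 2 the germ-free count was 7 higher and 2 lower. Bmp7, a second BMP ligand, rose by 1.64 ± 0.33 in conventional mice (edgeR adjusted p = 0.0021), from 1.10 ± 0.35 to 3.45 ± 1.77 CPM (SD, n = 6 and 5). It rose by 1.70 ± 0.32 in germ-free mice, from 1.87 ± 0.57 to 6.07 ± 1.41 CPM. Fgl1, a hepatocyte-secreted protein that binds BMP ligands and lowers hepcidin, rose from 488 ± 124 to 1229 ± 486 CPM in conventional mice (1.33 ± 0.23, adjusted p = 0.000476). In germ-free mice it rose from 423 ± 95.9 to 1690 ± 249 CPM, by 2.00 ± 0.23 (adjusted p = 2.87e-06).

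The SMAD targets of that list did not all move with Hamp. Id1, a target that rises with BMP signalling, rose in germ-free mice from 7.89 ± 2.58 to 25.4 ± 6.25 CPM (1.68 ± 0.33, edgeR adjusted p = 0.00134). In conventional mice it went from 13.6 ± 7.72 to 27.2 ± 10.6 CPM and was not called (1.00 ± 0.33, adjusted p = 0.0565). Smad7, an inhibitory SMAD that is itself a target, fell by 0.89 ± 0.24 in both comparisons (adjusted p = 0.0179 and 0.0164). The conventional call on Smad7 was lost without non-pregnant mouse 5 (fell by 0.67, adjusted p = 0.0601). Smad6 rose by 0.67 ± 0.20 and 0.93 ± 0.20, and Hfe2, which encodes hemojuvelin, was 0.31 ± 0.14 (adjusted p = 0.178) and rose by 0.62 ± 0.14 in germ-free mice. The conventional call on Smad6 was lost without any 1 of 6 libraries. Calls on Smad5 and Atoh8 in germ-free mice were lost without any 1 of 15 and 14 libraries.

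**Figure D4:**
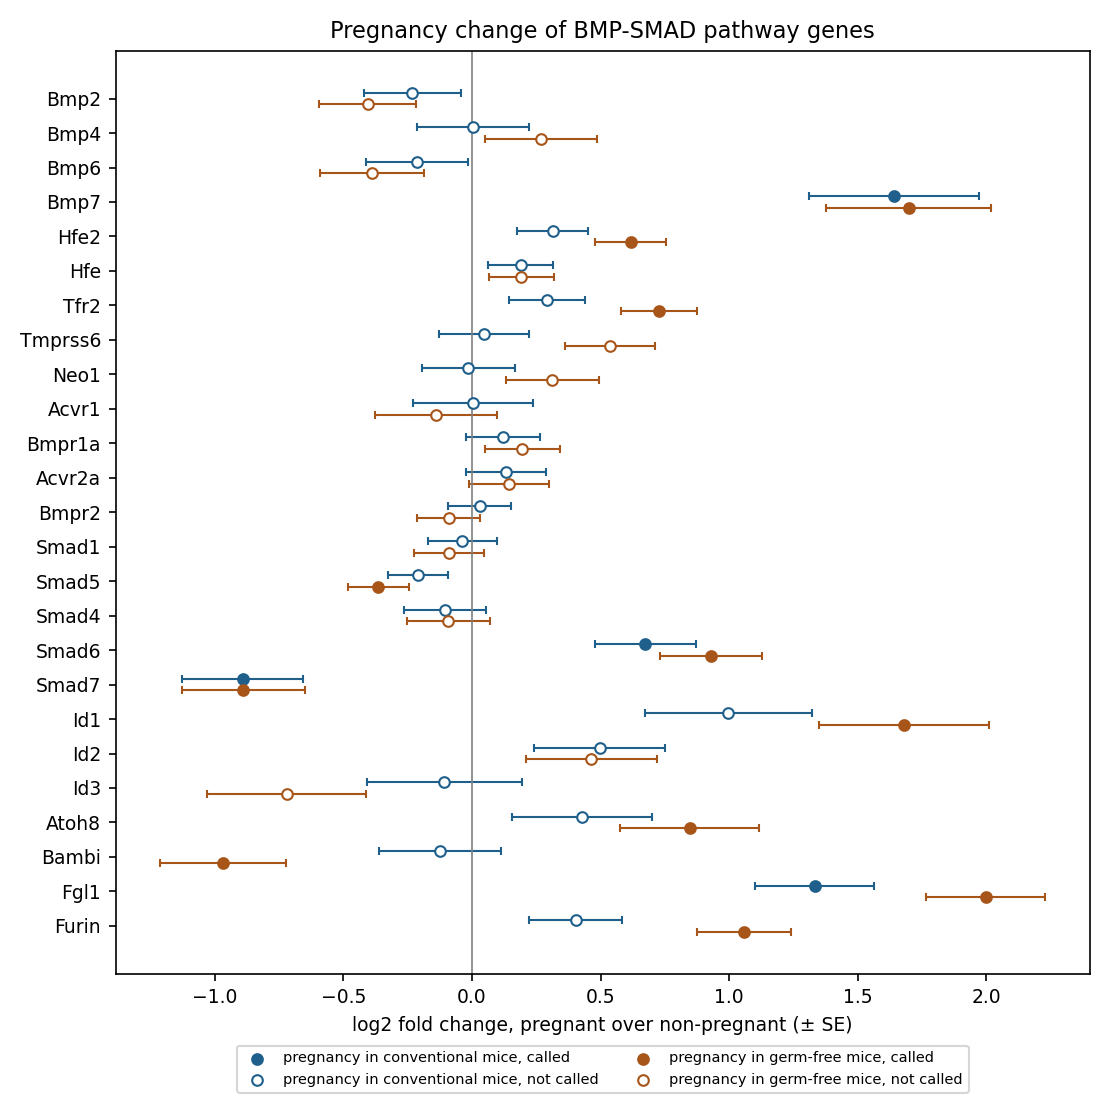
Fitted log2 fold change with pregnancy (± 1 standard error) of the 25 tested genes of the BMP and SMAD list, in conventional (blue) and germ-free (brown) mice, ordered from ligands through receptors and SMADs to targets. Filled points passed the test; Bmp7 and Fgl1 lie to the right in both comparisons, Smad7 to the left in both, and Bmp6 left of 0 with open points.

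Trf, the plasma iron carrier, was the most abundant of the 10 transcripts. It ran from 8707 through 10285 to 17591 CPM (lowest, median, highest) in conventional non-pregnant mice and was 14580, 24603, 31304, 23530 and 25478 CPM in pregnant mice. The groups overlapped only because non-pregnant mouse 6 lay above pregnant mouse 1, and Trf rose by 1.09 ± 0.21 (edgeR adjusted p = 0.00148). Germ-free mice had 10060, 10532 and 11049 CPM without pregnancy, the narrowest range of any group, and 15634, 30212, 23734, 25572 and 23986 CPM with it. Every pregnant value exceeded every non-pregnant one, a rise of 1.17 ± 0.21 (adjusted p = 0.000554). Gm20425, which shares 2108 exon bases with Trf on the same strand, was at 9.90 CPM or less in each library.

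Iron-responsive elements are printed for Fth1, Slc40a1 and Tfrc and for the ferritin light chain Ftl1. Slc40a1 was called in both comparisons and Fth1 and Tfrc in neither, and each of these genes carries the loop. Differences between these genes were not tested. Matches in the other members are not listed here. The elements were found in GENCODE M21 transcripts of GRCm38 as 17-base hairpins with 5 paired bases, and capitals mark the CAGTGN loop. The pattern occurs in a UTR of 160 of 21901 coding genes (0.731%).
Fth1 5′ UTR (chr19:9982738-9982754, plus strand): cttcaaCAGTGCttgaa
Ftl1 5′ UTR (chr7:45459785-45459801, minus strand): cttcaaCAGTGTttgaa
Slc40a1 5′ UTR (chr1:45925471-45925487, minus strand): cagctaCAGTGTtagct
Tfrc 3′ UTR (chr16:32631225-32631241, plus strand): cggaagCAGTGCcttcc
Tfrc 3′ UTR (chr16:32631604-32631620, plus strand): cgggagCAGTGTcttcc
Tfrc 3′ UTR (chr16:32631669-32631685, plus strand): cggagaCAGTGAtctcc
Tfrc 3′ UTR (chr16:32631716-32631732, plus strand): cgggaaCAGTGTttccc
These members differ in where the element lies, before the coding sequence in Fth1 and Slc40a1 and after it in Tfrc, with 4 matches to this pattern.

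Tfrc encodes transferrin receptor 1, through which most cells take up iron. Conventional non-pregnant mice had 8.85, 8.76, 11.0, 28.9, 25.9 and 7.04 CPM, and pregnant mice 20.7, 25.8, 22.5, 33.9 and 44.7. Non-pregnant mice 4 and 5 were in the pregnant range and the other 4 below it. The change of 0.97 ± 0.34 was not called (edgeR adjusted p = 0.0816), but it was called without mouse 4 (1.25, adjusted p = 0.0239), without mouse 5 (1.20, adjusted p = 0.0396) and with the mitochondrial percentage as a covariate (1.18, adjusted p = 0.0409). Germ-free mice ran from 12.8 through 20.3 to 33.7 CPM and had 33.4, 18.1, 35.3, 35.6 and 33.6 CPM in pregnancy, with mouse 2 below the other 4. That change was 0.53 ± 0.34 (adjusted p = 0.373).

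Fth1, the ferroxidase subunit of ferritin, stayed within overlapping ranges. It was 1004, 1171 and 1499 CPM (lowest, median, highest) in conventional non-pregnant mice and 899, 1373, 1221, 963 and 1157 in pregnant mice, a change of -0.09 ± 0.16 (edgeR adjusted p = 0.808). In germ-free mice it ran from 1125 through 1319 to 1866 CPM and was 1690, 1721, 1443, 1223 and 1203 CPM in pregnancy (0.07 ± 0.16, adjusted p = 0.844). Ftl1, the light chain, was not called either, at -0.26 ± 0.18 and -0.05 ± 0.18. Transcript levels carry no measure of the translation that the 5′ UTR element controls.

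Slc40a1 encodes ferroportin, the only known cellular iron exporter and the target of hepcidin. Conventional non-pregnant mice ran from 97.5 through 107 to 136 CPM, and pregnant mice had 143, 177, 171, 157 and 150 CPM. The groups did not overlap, and Slc40a1 rose by 0.53 ± 0.12 (edgeR adjusted p = 0.00747). In germ-free mice it was 78.4, 83.6 and 88.3 CPM (lowest, median, highest) and, in pregnancy, 83.2, 121, 125, 147 and 129 CPM. Pregnant mouse 1 lay inside the non-pregnant range and the other 4 above it, and the rise was 0.54 ± 0.12 (adjusted p = 0.00535). Macrophages also express this gene, and of 12 Kupffer cell markers none was called in either comparison. Their summed level was 308 to 770 CPM in conventional non-pregnant and 307 to 1606 in pregnant mice, with the highest in mouse 2, and 239 to 602 against 270 to 625 in germ-free mice.

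Cp, which encodes ceruloplasmin, had the largest rise of the 10 genes. It measured 463, 558 and 919 CPM (lowest, median, highest) in conventional non-pregnant mice and 1780, 3433, 5273, 4459 and 4375 CPM in pregnant ones. Even pregnant mouse 1, the lowest of its group, was above non-pregnant mouse 6, the highest of its own. Cp rose by 2.67 ± 0.25 (edgeR adjusted p = 1.21e-07), 6.36-fold between means. In germ-free mice it ran from 422 through 594 to 707 CPM and was 3436, 5683, 6470, 4957 and 5510 CPM in pregnancy. The gap between the groups was wider there, with a rise of 3.17 ± 0.25 (adjusted p = 1.06e-08), 8.98-fold between means. Hps3, which shares 108 antisense exon bases with Cp, was at 3.69 to 7.44 CPM.

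**Figure D5:**
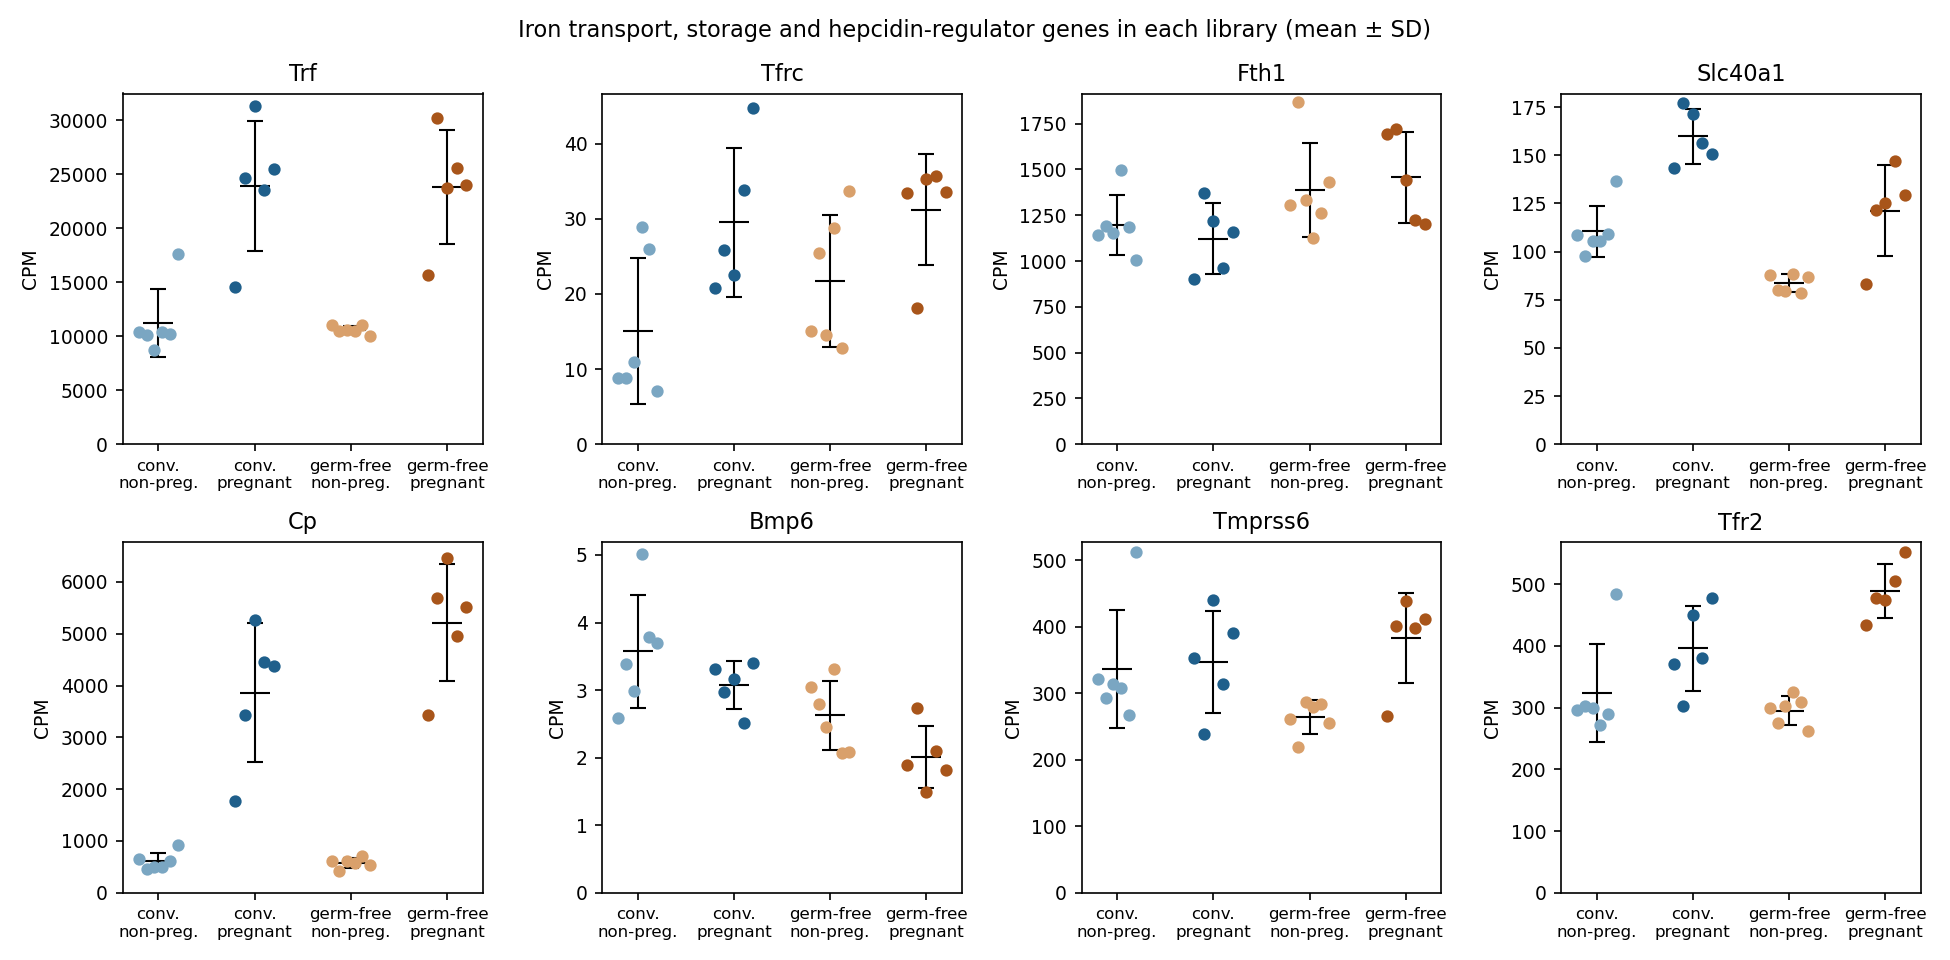
CPM of the other 8 genes in each library, 1 panel per gene, with groups along the horizontal axis, a linear vertical axis from 0 and black marks for the group mean ± SD. Cp and Trf are higher in pregnancy in both kinds of mice, with Cp from 1780 to 6470 CPM in pregnant libraries, whereas Fth1 and Bmp6 overlap between groups.

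Values were also set per kilobase of exon, with each gene's annotated exons joined, which can exceed the length of the transcript present. For Hamp2 the joined length was 583 bases, against 420 in the transcript aligned above, and for Fth1 it was 3469. The order therefore depends on the annotation. In conventional non-pregnant mice it was led by Trf at 3381 ± 959 CPM per kb (SD, n = 6) and Hamp at 3140 ± 2046, which did not differ beyond their spread. Hamp2 followed at 717 ± 374, then Fth1 at 345 ± 47.1. Tmprss6 at 100.02 ± 26.4, Tfr2 at 74.7 ± 18.2 and Cp at 63.5 ± 17.8 had overlapping spreads, and Slc40a1 at 12.3 ± 1.48, Tfrc at 2.44 ± 1.57 and Bmp6 at 0.917 ± 0.214 were lowest. In conventional pregnant mice the order became Trf (7199 ± 1812 CPM per kb, SD, n = 5), Hamp2 (1346 ± 902), Cp (404 ± 140), Hamp (364 ± 114) and Fth1 (324 ± 55.7). The last 3 of these lay within each other's spread. In germ-free pregnant mice Trf (7177 ± 1587) was followed by Hamp2 (829 ± 708), Cp (545 ± 118), Fth1 (420 ± 71.1), Tmprss6 (114 ± 20.1), Tfr2 (113 ± 10.2) and Hamp (96.7 ± 155), the last 3 again within their spread.

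The wider set of iron transport, storage and recycling genes, which includes Trf, Tfrc, Fth1, Slc40a1 and Cp, had 34 tested genes. In conventional mice 7 were called higher and 4 lower (5.49% and 3.52% of all genes). In germ-free mice 5 were higher and 3 lower (7.15% and 3.6%). The list medians were 0.14 and 0.21. Slc39a14, which imports iron not bound to transferrin, rose by 1.09 ± 0.17 (edgeR adjusted p = 0.000202) and 1.06 ± 0.17 (adjusted p = 0.00017). Blvrb, a biliverdin reductase, fell by 0.81 ± 0.20 and 0.99 ± 0.21, and Slc25a37, a mitochondrial iron importer, fell by 0.79 ± 0.21 and 0.97 ± 0.21, with the conventional call lost without 1 library. Hmox1, the heme-degrading enzyme, was called in conventional mice at 1.66 ± 0.39, but stood at 0.70 without pregnant mouse 2 (adjusted p = 0.0557). Lcn2, a siderophore-binding protein, was called at 4.35 ± 1.05 and stood at -0.16 without that mouse (adjusted p = 0.915). Its 5 conventional pregnant values were 8.79, 885, 13.0, 4.14 and 6.32 CPM. Without mouse 2 the conventional count was 4 higher and 4 lower, and the germ-free count 9 higher and 4 lower.

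Of 9 heme synthesis enzymes, 1 was higher in conventional mice and 3 in germ-free mice (5.49% and 7.15% of all genes), with none lower and medians of -0.00 and 0.14. Alas2, the erythroid form of the first enzyme, rose by 1.45 ± 0.28 (edgeR adjusted p = 0.00177) and 1.83 ± 0.28 (adjusted p = 0.000112). Alad, the second enzyme of the pathway, rose by 0.63 ± 0.18 in germ-free mice, a call lost without either of 2 libraries. Alas2 also stands among 10 tested erythroid markers, of which 2 were higher in conventional and 7 in germ-free mice (5.49% and 7.15% of all genes). The summed level of 13 erythroid markers, which include those below the filter, was 452 to 865 CPM in conventional non-pregnant mice and 372 to 2255 in pregnant ones. In germ-free mice it was 242 to 1773 and 1763 to 3578. Gata1, a defining erythroid factor, did not pass the filter and was at 0 in all germ-free non-pregnant libraries. At so low a level, and with the summed markers at 242 CPM or more there, this does not show that erythroid RNA was absent. What part erythroid RNA has in the values of Alas2 or Tfrc was not tested. Erfe, the erythroid hormone that lowers hepcidin, did not pass the filter, with 10 estimated counts or fewer in each library.

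Copper genes were followed because ceruloplasmin carries copper. Of 13 tested, 3 were higher and 1 lower in conventional mice (5.49% and 3.52% of all genes) and 3 higher in germ-free mice (7.15%), with medians of 0.00 and 0.07. The lower gene, the copper chaperone Ccs at -0.48 ± 0.15, lost its call without any 1 of 12 libraries. The conventional count of lower genes was 0 without conventional pregnant mouse 2 or germ-free pregnant mouse 2, and 3 without conventional non-pregnant mouse 6. Besides Cp, the higher genes were the metallothioneins, which buffer copper and zinc. Mt2 rose by 2.82 ± 0.47 (edgeR adjusted p = 0.000319) and 2.50 ± 0.46 (adjusted p = 0.000709), and Mt1 by 1.67 ± 0.48 and 2.07 ± 0.48. The conventional call on Mt1 was lost without any 1 of 6 libraries. Atp7b, which loads copper into ceruloplasmin, was at -0.15 ± 0.22 and 0.03 ± 0.22 and was not called.

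Cp, Hamp and Lcn2 are also acute phase genes, and the list of interleukin-6, STAT3 and acute phase genes behaved differently with and without conventional pregnant mouse 2. Of 26 genes tested, 13 were higher and 1 lower in conventional mice (5.49% and 3.52% of all genes), with a median of 0.69. Without that mouse 6 were higher and 1 lower, with a median of 0.27. Saa1 stood at 16.7, 2049, 26.1, 16.4 and 17.4 CPM in the 5 conventional pregnant mice. Saa2 and Saa3, the other serum amyloid A genes, were called at 4.90 ± 1.12 and 5.48 ± 1.08 and stood at -0.07 (edgeR adjusted p = 0.969) and 0.76 (adjusted p = 0.208) without it. In germ-free mice 10 of the 26 were higher (7.15% of all genes) and none lower, with a median of 0.79. There 16 were higher without conventional pregnant mouse 2, which enters that test through the shared estimate of spread. Calls over all genes also moved between such fits, so that count is not read as particular to this list. Itih4, an inter-alpha-trypsin inhibitor heavy chain, rose by 2.93 ± 0.29 (adjusted p = 2.6e-07), Lbp, which binds lipopolysaccharide, by 1.51 ± 0.21 and Fga, a fibrinogen chain, by 1.26 ± 0.28. Stat3 rose by 0.73 ± 0.18 and 0.81 ± 0.18, and Socs3, its feedback inhibitor, was not called at 1.18 ± 0.52 and -0.58 ± 0.53.

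Hypoxia can act on both hepcidin and ceruloplasmin. Of 14 hypoxia response genes, 3 were higher in conventional and 4 in germ-free mice (5.49% and 7.15% of all genes). None was lower, and the medians were -0.09 and 0.04. Egln3, an oxygen sensor, rose by 1.26 ± 0.16 (edgeR adjusted p = 7.45e-06) and 0.84 ± 0.15 (adjusted p = 0.000641). Ndrg1 rose by 1.23 ± 0.28 and 1.11 ± 0.28, and Hif1a by 0.65 ± 0.15 and 0.59 ± 0.15, with the germ-free call on Hif1a lost without either of 2 libraries. Car9 was called in germ-free mice at 3.90 ± 0.97 through mouse 2, without which the call was lost (1.40, adjusted p = 0.308).

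None of the 10 genes was called for germ-free status, in non-pregnant mice (0.157% of all genes called, 0.0879% higher and 0.0691% lower) or in pregnant mice (0.132%, with 0.0816% higher and 0.0502% lower). At an unadjusted p under 0.05 there were 3 in non-pregnant mice, Bmp6, Tmprss6 and Slc40a1, and 4 in pregnant mice, Hamp, Bmp6, Fth1 and Slc40a1, where 6.01% and 10.5% of all genes reached that level. DESeq2 called 114 and 109 of all genes. Slc40a1 had the clearest separation: in non-pregnant mice its germ-free range of 78.4 to 88.3 CPM lay below the conventional range of 97.5 to 136 without overlap (0.433% of all genes were lower and 0.364% higher in this way), a change of -0.40 ± 0.12 (edgeR adjusted p = 0.261). In pregnant mice the change was -0.40 ± 0.13 (adjusted p = 0.295), and none of the 10 genes separated the groups, against 0.496% of all genes higher and 0.603% lower. Hamp stood at -1.01 ± 0.70 in non-pregnant mice (adjusted p = 0.985) and at -1.91 ± 0.79 in pregnant mice (adjusted p = 0.394), and it was called in the latter without germ-free pregnant mouse 2 (-3.64, adjusted p = 0.0378). Cp was at -0.07 ± 0.23 and 0.43 ± 0.25, and Trf at -0.08 ± 0.20 and -0.00 ± 0.22.

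A difference in the pregnancy response by microbiota was tested as an interaction, and 0 genes were called (0% of all genes, with 903 at an unadjusted p under 0.05 and 7 called by DESeq2). None of the 10 genes reached an unadjusted p under 0.05. The difference of the changes was -0.91 ± 1.03 for Hamp (edgeR adjusted p = 0.93), -1.02 ± 0.80 for Hamp2 (adjusted p = 0.899), 0.50 ± 0.34 for Cp (adjusted p = 0.887) and 0.44 ± 0.21 for Tfr2 (adjusted p = 0.863). The pregnancy rise of Tfr2, called in germ-free mice alone, was therefore not shown to differ from that in conventional mice.

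Across all 22 libraries, the genes whose deviations from the group means followed those of Hamp most closely were Myl9 (Pearson r = 0.88), Me3 (0.84), Apoa5 (0.83), Wfdc2 (0.81) and Med10 (0.81). For Cp they were Mpp1 (0.91), Serpinf2 (0.88), Plg (0.88), C4bp (0.88) and Itih4 (0.88). Within the 10 genes, Hamp was at 0.67 with Hamp2 and 0.61 with Fth1, and Cp at 0.84 with Trf. These are descriptions over libraries that share depth and scaling. Hamp spread most widely in the germ-free pregnant mice, from 1.54 to 150 CPM, against 92.0 to 207 CPM in conventional pregnant mice. Its list therefore rests mostly on the germ-free pregnant libraries, and the ranking was not repeated without them.

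Within each group of 6 non-pregnant mice, Hamp was set against Bmp6, Id1, Smad7 and Saa1, 8 relations in all. By Pearson r the closest was with Saa1 in germ-free mice, at 0.96 (exact permutation p = 0.00833, adjusted 0.0667). Its Spearman rho was 0.89 (exact permutation p = 0.0333, adjusted 0.133), and r was 0.98 without the 2 mice farthest from the median. In conventional mice the same relation was r = -0.00 (exact permutation p = 0.997, adjusted 0.997, and rho = 0.09, exact permutation p = 0.919, adjusted 1.0), with r = 0.87 without the 2 farthest. Id1 had r = 0.79 in conventional (exact permutation p = 0.0556, adjusted 0.136, and rho = 0.71, exact permutation p = 0.136, adjusted 0.272) and 0.85 in germ-free mice (exact permutation p = 0.0389, adjusted 0.136, and rho = 0.77, exact permutation p = 0.103, adjusted 0.272). Without the 2 farthest mice these were 0.19 and 0.76, so the conventional relation with Id1 rests on those mice. Smad7 in conventional mice had the same rho as Saa1 in germ-free mice, 0.89 (exact permutation p = 0.0333, adjusted 0.133). Its r was 0.77 (exact permutation p = 0.0681, adjusted 0.136), and 0.61 without the 2 farthest. In germ-free mice Smad7 had r = 0.42 (exact permutation p = 0.435, adjusted 0.631). Bmp6 had r = 0.37 in conventional and 0.16 in germ-free mice (exact permutation p = 0.474 and 0.726). None of the 8 passed after adjustment.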

How the data were processed

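The submitters' processing notes name Salmon 0.11.3 and edgeR 3.24.3, with GRCm38.p6 as the build. What each tool did, which annotation release was used and how genes were summed is not given in the sources used here. Values deposited by the authors are estimated counts, 1 column for each of the 22 mice, with no scaling applied. Between 14.7% and 26.3% of a library's values were not whole, since Salmon splits ambiguous reads. Identifiers were matched to GENCODE M21 names, 97.7% by full identifier and 99.9% once versions were ignored, as for Fth1. Per the labels' protocols, libraries were made with the NEBNext Ultra kit.

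Counts were rounded (0.00829% of counts changed), filtered with edgeR 4.0.16 defaults (minimum count 10, total 15) and scaled by TMM. A quasi-likelihood model with 1 term per group was fitted to all 22 libraries, and p-values were adjusted by Benjamini-Hochberg over 15928 genes, with a gene called under 0.05. CPM use the effective library size. Log2 changes are given ± standard error. Log2 CPM of single libraries used a prior count of 2. Hamp2 shares were compared with exact two-sided permutation tests. The fit was also run on simulated counts in which no library stood apart, so that run does not cover this feature of the data.

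Named were all 10 members; from each pathway list and comparison, up to 3 called genes with the largest change (minimum 1 CPM in whichever group was higher); and the 5 genes most like Hamp and Cp. Other genes of the lists were named after their values were seen. A gene that this rule names is not reported here. The members and lists were chosen with earlier results of these data known. Libraries of a group were compared in 50 pairs, with a mean chi-square per gene of at least 31.9, so none repeated another. Alternatives were RLE scaling, no filter, DESeq2 1.42.0, only the groups compared, mitochondrial genes left out, a replicate block, Hamp and Hamp2 summed, and each library left out.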

Additional observations from a re-analysis of the deposited data

Results flagged for a closer look

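In 44 sets of one gene or share in one group, a library was marked where its gap to the nearest other library was a large part of the group's whole range. This marked 8, and chance marks about 5% of such sets. Conventional non-pregnant mouse 6 was marked as the highest of its group 4 times, on the log2 CPM scale, for Tmprss6 at 9.00, Tfr2 at 8.92, Trf at 14.10 and Slc40a1 at 7.09. The same mouse had the lowest Hamp of its group, 293 CPM, and the lowest mitochondrial percentage of its group, 8.44%. Germ-free pregnant mouse 1 was marked as the lowest of its group for Tmprss6 at 8.05, and it was also the lowest pregnant germ-free mouse for Cp, at 3436 CPM, Trf, at 15634 CPM, and Slc40a1, at 83.2 CPM. Germ-free pregnant mouse 2 was marked as the lowest for Tfrc at 4.19 and for the Hamp2 share at 87.5%, and had the highest Hamp of its group, 150 CPM. Conventional pregnant mouse 2 was marked for a Hamp2 share of 31.0%, with Saa1 at 2049 CPM, summed Kupffer cell markers at 1606 CPM against 307 to 560 in the other 4, and 5.90% mitochondrial counts, the lowest of all libraries. What part these have in its Hamp2 share was not tested.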

How the results depend on the processing

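The calls of Hamp, Cp, Trf and Slc40a1 with pregnancy kept their direction and side of the threshold under each alternative fit of the table of 10 genes, as did Tfr2 in germ-free mice; summing Hamp with Hamp2 lost the call on Hamp. The numbers of all genes called moved more, and the cause was not tested. Precision is limited by 5 or 6 mice per group, and Bmp6 by its low level.

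Without a filter on low counts, germ-free status in non-pregnant mice called 18 genes lower against 11, in pregnant mice 20 higher and 15 lower against 13 and 8, and the interaction 1 in each direction against 0. With only the groups compared, pregnancy in conventional mice called 497 genes higher against 875, and germ-free status called 18 lower in non-pregnant and 2 higher and 3 lower in pregnant mice. DESeq2 called 879 genes lower with pregnancy in conventional mice against 561 and 872 in germ-free mice against 574, 55 higher and 59 lower between the non-pregnant groups, 65 and 44 between the pregnant groups, and 2 and 5 for the interaction. With the mitochondrial percentage as a covariate, chosen after seeing the data, pregnancy in conventional mice called 579 higher and germ-free status 7 lower in non-pregnant and 4 in each direction in pregnant mice. Without conventional non-pregnant mouse 6 and conventional pregnant mouse 2 together, also chosen after seeing the data, pregnancy in germ-free mice called 913 genes lower, germ-free status in non-pregnant mice 17 lower, and the interaction 1 higher.

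Whether the replicate numbers pair the mice is not stated, and the correlations gave no clear sign of it but cannot exclude it. Same-numbered mice had correlations of -0.26 to 0.31 over 21 pairs, 5 of them over 0.1, and 5 mice correlated best with their own number. With the replicate number as a block, germ-free status in non-pregnant mice called 19 genes lower and the interaction 1 higher, the interaction of Slc40a1 was -0.0096, and Tfrc in conventional mice (adjusted p = 0.0489) and Tmprss6 in germ-free mice (adjusted p = 0.029) were called.

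Leaving out each library in turn, or the 2 named above together, germ-free status called 5 to 21 genes higher and 5 to 23 lower in non-pregnant mice, and 2 to 20 higher and 2 to 11 lower in pregnant mice, where 0 to 1 of the 10 genes was called. The interaction called 0 to 1 in each direction, pregnancy in germ-free mice 384 to 913 lower, and the difference in Hamp2 share between pregnant groups was 8.90 to 23.6 points.

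Changes near 0 turned sign, over the same sets of libraries left out. For germ-free status in pregnant mice, Trf was 0.0038 with RLE scaling, 0.0027 without mitochondrial genes, 0.0045 with DESeq2 and 0.10 with the covariate, and -0.14 to 0.11 with libraries left out; Tfrc was -0.12 with the covariate and -0.021 to 0.28 with libraries left out. Non-pregnant germ-free against conventional mice gave Cp at 0.051 with the covariate and -0.13 to 0.11, Tfr2 -0.18 to 0.032 and Trf -0.14 to 0.11 with libraries left out. Pregnancy gave Tmprss6 in conventional mice -0.014 with the covariate and -0.053 to 0.28, and Hamp2 in germ-free mice -0.60 to 0.16. The interaction gave Slc40a1 -0.0033 without a filter and -0.071 to 0.12, and Trf -0.10 to 0.20.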
